A study of Mus with 6 samples.

Results

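Genes of the Notch pathway were followed in lens epithelial cells (LECs) after lens fiber cell removal: the receptors Notch1 and Notch2, the ligand Jag1, and the target genes Hes1 and Hey1. They were chosen by name, and their rows were found by Ensembl identifier. All 5 of the 5 genes were present among the 55421 genes counted, and all 5 were among the 16810 genes that passed the low-count filter. The RNAseq compared LECs attached to the lens capsule at 0 h and at 6 h post cataract surgery (PCS), the removal of the fiber cell mass from the eye. Both groups were wildtype C57BL/6 mice, labelled as 2 months old, although the methods give an older range. Each group had 3 libraries, and each library was a pool of 5 capsules. Both eyes of a mouse were operated, 6 h apart, so a mouse may have given a capsule to either time point. Which pools have mice in common is not stated.

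The Notch pathway passes a signal between cells in contact. A ligand such as JAG1 on the surface of a cell binds a Notch receptor on its neighbour, ADAM proteases and then the gamma-secretase complex cut the receptor, and its intracellular part moves to the nucleus. There it joins the DNA-binding protein RBPJ and a Mastermind coactivator, and genes of the HES and HEY families, which encode basic helix-loop-helix repressors, are classic targets. In the lens, Jag1 and Rbpj are known for keeping the balance between growth of the epithelium and formation of fiber cells.

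Among these genes Notch1 mRNA rose at 6 h PCS, while no change passed the test for Notch2, Jag1, Hes1 or Hey1. Notch1 reached 2.42 times its level at 0 h PCS. Jag1 had a higher mean at 6 h PCS, at 1.74 times the 0 h level, but its libraries overlapped between the time points. The fitted ratios of Hes1, at 1.03, and of Hey1, at 1.12, were close to 1. Of the 5 genes, 1 rose and 0 fell past a false discovery rate (FDR) limit of 0.05 in the quasi-likelihood test of edgeR, with p-values adjusted by Benjamini-Hochberg over all 16810 genes. Among all genes tested, 6.31% rose and 2.02% fell past that limit, 8.33% in either direction. The groups did not overlap in 1 of the 5 genes, against 30.6% of all genes tested (15.3% with the 6 h libraries higher and 15.3% with them lower). With libraries scaled on their size alone instead of by TMM, 29.0% of all calls were increases instead of 75.7%, and the median over all genes, on the log2 scale, was -0.317 instead of -0.00304. Changes below are therefore relative to the TMM scale.

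**Figure D1:**
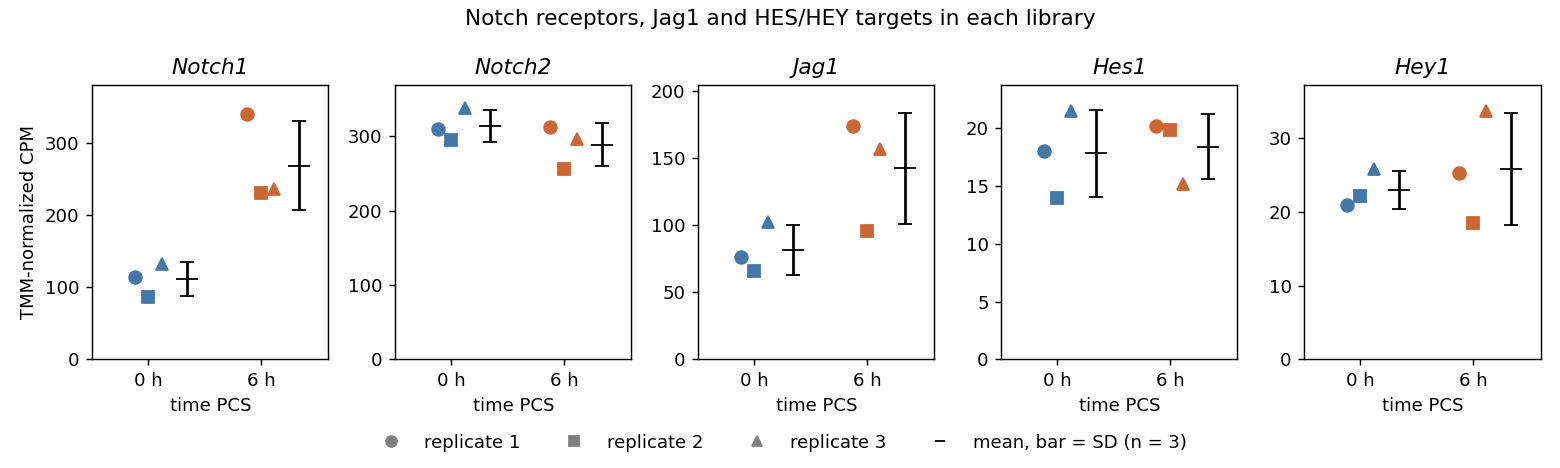
TMM-normalized CPM (counts per 1000000 counts, vertical axes starting at 0) of Notch1, Notch2, Jag1, Hes1 and Hey1 in the 3 libraries at 0 h PCS (blue) and the 3 at 6 h PCS (orange), with the mean and SD of each group beside the points. The 3 Notch1 libraries at 6 h PCS, between 231 and 340 CPM, lie above the 3 at 0 h PCS, between 86.4 and 133 CPM, while the groups overlap in the other genes.

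Notch1 (ENSMUSG00000026923, chromosome 2 of GRCm38, 26457902 to 26503822) encodes a transmembrane receptor of the pathway. Its level was 115, 86.4 and 133 CPM in the 3 libraries at 0 h PCS and 340, 231 and 237 CPM in the 3 at 6 h PCS. Every library at 6 h PCS lay above every library at 0 h PCS, and 6 h replicate 1 was the highest. The group means were 111 ± 23.3 CPM and 269 ± 61.6 CPM (SD, n = 3). The edgeR fit gave a log2 fold change of 1.27 ± 0.205 (SE), with an adjusted p of 0.00516. Its 95% interval ran from a fold of 1.76 to a fold of 3.32. With each library left out in turn, Notch1 passed the FDR limit in all 6 fits, with log2 fold changes between 1.07 and 1.41. It also exceeded the 2-fold limit that the study used beside the FDR limit for differentially expressed genes (DEGs), and 4.53% of all tested genes passed both limits upwards, but with library size scaling its log2 fold change of 0.94 lay just under that limit. RNA in a pool of capsules is a sum over its cells, so a higher level from more cells of a type and one from more RNA per cell cannot be told apart, and likewise fewer cells and less RNA per cell for a lower level. The library 6 h replicate 1, where Notch1 was highest, also had the fewest gene counts, 18039974, and the lowest share of its read pairs counted on genes, 33.6% against 39.5% to 41.2% in the other 5. Without it the log2 fold change of Notch1 was 1.07.

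Notch2 (ENSMUSG00000027878, chromosome 3, 98013538 to 98150367) encodes the second receptor. It was at 310, 295 and 338 CPM at 0 h PCS and at 313, 256 and 297 CPM at 6 h PCS. The highest library was at 0 h PCS and the lowest at 6 h PCS, but the groups overlapped. Its means of 314 ± 21.7 and 289 ± 29.0 CPM (SD, n = 3) gave a log2 fold change of -0.12 ± 0.137 (SE), for which the edgeR adjusted p was 0.641. The 95% interval, from a fold of 0.743 to a fold of 1.14, covers both a decrease and a small increase. Notch2 varied least between libraries, with a coefficient of variation of 6.91% at 0 h and 10.1% at 6 h PCS, against 20.9% and 22.9% for Notch1.

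The 2 receptors could be compared without any scaling of the libraries, through the ratio of their counts inside each library. The number of Notch1 counts per Notch2 count was 0.371, 0.293 and 0.392 at 0 h PCS and 1.09, 0.900 and 0.798 at 6 h PCS. The groups did not overlap, and the ratio was 2.64-fold higher at 6 h PCS, a difference of 1.40 in the mean log2 ratio. An exact two-sided permutation test of 3 libraries against 3 gave p = 0.1, the smallest value that this design allows. These are ratios of counts and not of molecules, since longer transcripts give more counts. The third receptor that could be named, Notch3, had means of 8.74 ± 1.46 CPM and 9.74 ± 0.611 CPM (SD, n = 3), and its log2 fold change of 0.15 did not pass the edgeR test (adjusted p = 0.736).

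**Figure D2:**
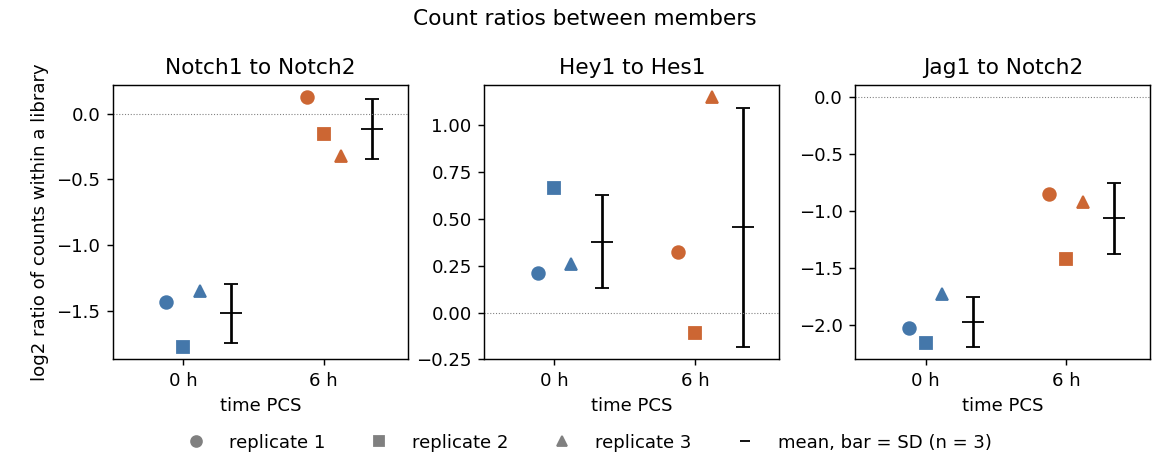
Log2 ratio of the raw counts of 2 genes within each library (vertical axes), for Notch1 to Notch2, Hey1 to Hes1 and Jag1 to Notch2, at 0 h PCS (blue) and 6 h PCS (orange), with the mean and SD of each group. The groups are apart for the ratios of Notch1 and of Jag1 to Notch2, and they overlap for Hey1 to Hes1.

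Jag1 (ENSMUSG00000027276, chromosome 2, 137081451 to 137116520) encodes a ligand anchored in the membrane. Its level was 76.2, 66.1 and 102 CPM at 0 h PCS and 174, 95.8 and 157 CPM at 6 h PCS. At 6 h PCS 2 libraries lay well above all of the 0 h libraries, whereas 6 h replicate 2 lay below 0 h replicate 3. From 81.5 ± 18.6 to 142 ± 41.0 CPM (SD, n = 3), the change was 0.80 ± 0.239 (SE) on the log2 scale, with a 95% interval from a fold of 1.20 to a fold of 2.53 that is not adjusted for the number of genes tested. Its edgeR adjusted p of 0.0745 missed the FDR limit, and the value was 0.0236 without 6 h replicate 2. DESeq2 (adjusted p = 0.0184), the exact test of edgeR (0.0375), a replicate block in edgeR (0.0134) and the fit with no low-count filter (0.00011) put Jag1 past the limit. Over all alternatives the adjusted p ranged from 0.00011 to 0.239, and the lowest apart from the fit with no filter was 0.0134. The ratio of Jag1 to Notch2 counts, which needs no scaling, was 0.246, 0.224 and 0.302 at 0 h PCS and 0.556, 0.374 and 0.529 at 6 h PCS. By this ratio the groups did not overlap, and it was 1.87-fold higher at 6 h PCS (exact permutation test, two-sided p = 0.1, the smallest possible).

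Dll1, which encodes a ligand of the Delta type, was at 21.7, 15.5 and 11.5 CPM at 0 h PCS and at 52.5, 34.2 and 24.1 CPM at 6 h PCS. All of its 6 h libraries lay above those at 0 h PCS, but the lowest of them was close to the highest at 0 h. The change of 1.18 ± 0.315 (SE) on the log2 scale missed the FDR limit narrowly (edgeR adjusted p = 0.0519). Dll1 passed that limit under 8 of the 14 alternatives, DESeq2 and the exact test of edgeR among them, but in only 1 of the 6 fits without 1 library, and over all 14 the adjusted p ranged from 4.74e-06 to 0.145. Dner, which encodes a Delta/Notch-like protein with EGF repeats, had a log2 fold change of 0.44 (edgeR adjusted p = 0.251). In the quasi-likelihood test, 0 of the 3 ligands that could be named passed the limit, with fitted values that were all above 0, while Jag1 passed under 5, Dll1 under 8 and Dner under 0 of the 14 alternatives.

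Hes1 (ENSMUSG00000022528, chromosome 16, 30065357 to 30067796) encodes a repressor that also shuts off its own gene. It was at 18.0, 14.0 and 21.5 CPM at 0 h PCS and at 20.2, 19.9 and 15.2 CPM at 6 h PCS. All 3 values at 6 h PCS lay within the range of the values at 0 h PCS. The means were 17.9 ± 3.77 and 18.4 ± 2.81 CPM (SD, n = 3), and the log2 fold change was 0.05 ± 0.215 (SE), for which the edgeR adjusted p was 0.923. The 95% interval ran from a fold of 0.741 to a fold of 1.44, which does not include a 2-fold change in either direction. The sign of this value was not stable, and it was -0.27 with library size scaling.

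Hey1 (ENSMUSG00000040289, chromosome 3, 8663359 to 8667038) encodes a related repressor. Its level was 20.9, 22.2 and 25.8 CPM at 0 h PCS and 25.3, 18.4 and 33.7 CPM at 6 h PCS. The libraries at 6 h PCS included both the lowest and the highest value of the 6, so the spread at 6 h was wider, with 25.8 ± 7.63 CPM against 22.9 ± 2.56 CPM at 0 h PCS (SD, n = 3). The log2 fold change was 0.17 ± 0.224 (SE; edgeR adjusted p = 0.704), with a 95% interval from a fold of 0.794 to a fold of 1.59. It was -0.16 with library size scaling and -0.072 without 6 h replicate 3. That library, where Hey1 was highest, also stood apart in its pigment cell markers, at a summed 1965 CPM against 51.4 to 456 CPM in the other 5, and in the smooth muscle gene Myh11, at 169 CPM against 8.16 to 36.3 CPM, and the part of such cells in the level of Hey1 was not tested. The number of Hey1 counts per Hes1 count was 1.16, 1.58 and 1.20 at 0 h PCS and 1.25, 0.928 and 2.22 at 6 h PCS, so the 2 targets did not move apart in a common direction (exact permutation test, two-sided p = 0.8). Nrarp, which encodes a small feedback inhibitor of Notch signalling, was near the limit of detection, at 0.768 ± 0.436 CPM and 1.07 ± 0.461 CPM on average (SD, n = 3), and its interval, from a fold of 0.446 to a fold of 4.39, is too wide to place it.

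The depth did not limit these values much. The 5 genes had between 252 and 8092 counts per library, and the counting error expected from them was 1.14% to 5.61% of the level on average over a group. The coefficient of variation between the libraries was larger in each gene and group, from 6.91% for Notch2 at 0 h PCS to 29.6% for Hey1 at 6 h PCS. For Hes1, the least abundant by counts, the spread between libraries was 21.1% at 0 h PCS against a counting error of 4.82%.

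Beyond these genes, a list of 72 pathway genes by role was followed, of which 27 could be named, including the 5 above, and all 27 were tested. Of the 27, 5 rose (Notch1, Dtx2, Maml1, Tle1 and Tle3), 2 fell (Lfng and Dtx4) and 20 did not pass the FDR limit. The names come mostly from tables sorted by p-value and so lean towards changed genes. Among all 6370 tested genes with a name at hand, 16.2% rose and 5.02% fell past the limit. The median log2 fold change of the 27 genes was 0.21, beside 0.19 over the named genes. With 1 library left out the number past the limit lay between 2 (without 0 h replicate 1) and 6, and it was 4 without 0 h replicate 2, without 0 h replicate 3 or without 6 h replicate 3.

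**Figure D3:**
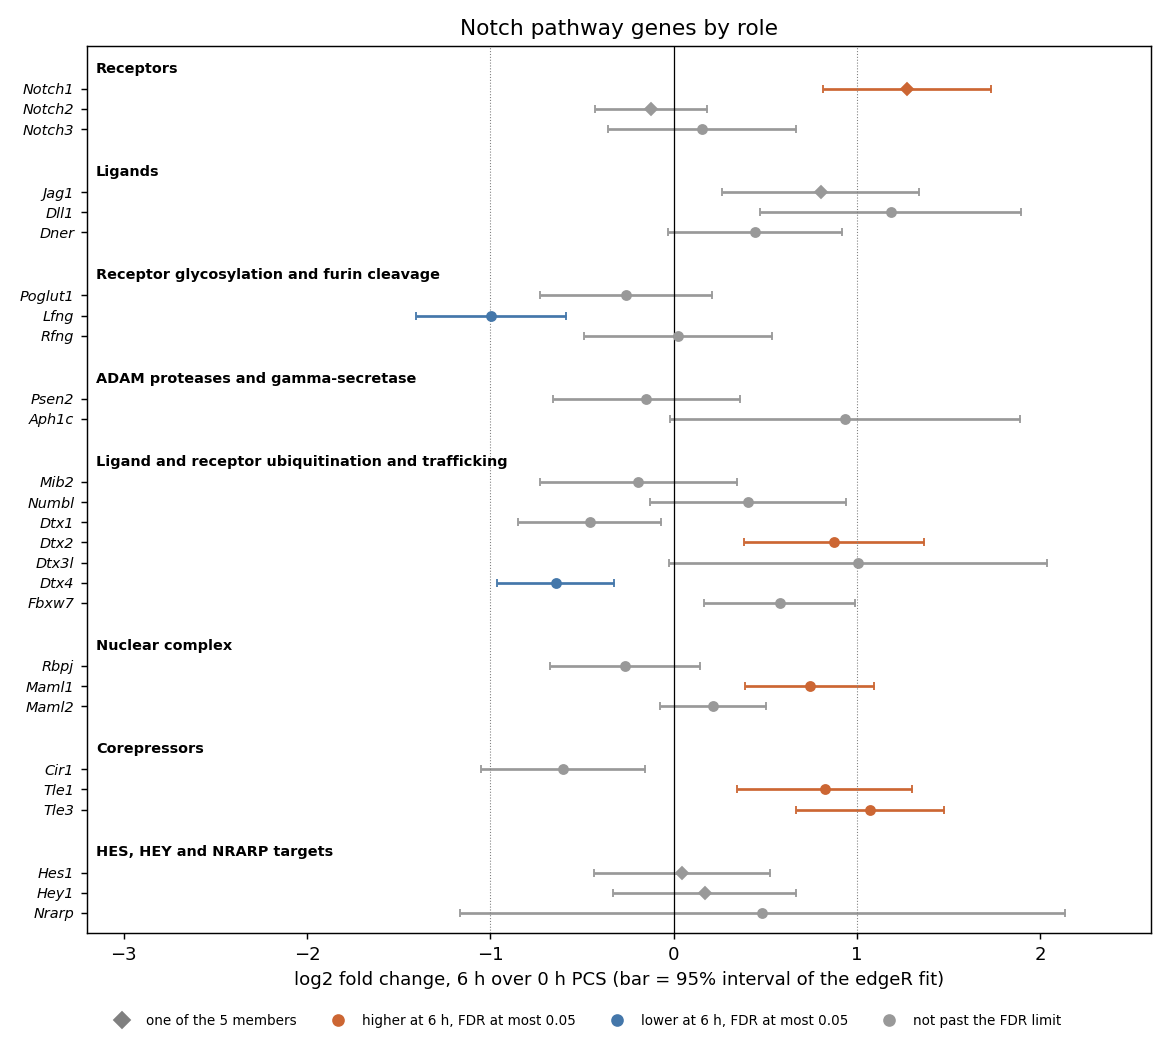
Log2 fold change of the 27 named Notch pathway genes at 6 h over 0 h PCS (horizontal axis), grouped by role, with bars for the 95% interval of the edgeR fit and dotted lines at 2-fold changes. Diamonds mark Notch1, Notch2, Jag1, Hes1 and Hey1. Notch1, Dtx2, Maml1, Tle1 and Tle3 lie to the right in orange, Lfng and Dtx4 to the left in blue, and the 3 target genes at the bottom are grey.

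Among the enzymes that modify the receptor before it reaches the surface, Lfng fell. It encodes lunatic fringe, which extends O-fucose sugars on the EGF repeats of Notch receptors and so alters how they respond to Jagged and Delta ligands. Lfng was at 65.7, 56.9 and 72.4 CPM at 0 h PCS and at 34.8, 38.1 and 24.8 CPM at 6 h PCS, with no overlap between the groups. Its log2 fold change was -0.99 ± 0.184 (SE; edgeR adjusted p = 0.01), just short of a 2-fold decrease, and it passed the FDR limit in 5 of the 6 fits without 1 library. The related gene Rfng, radical fringe, had a log2 fold change of 0.02, and Poglut1, which encodes an O-glucosyltransferase of Notch receptors, had -0.26, neither past the limit. Of the protease subunits, Psen2 and Aph1c of the gamma-secretase complex could be named, and neither passed the test (log2 fold changes of -0.15 and 0.94, edgeR adjusted p of 0.744 and 0.226).

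Of 13 listed genes for ubiquitination and trafficking of ligands and receptors, 7 could be named. Of these 7, 1 rose and 1 fell, both of the Deltex family of ubiquitin ligases. Dtx2 rose by 0.87 on the log2 scale (edgeR adjusted p = 0.0385), from a mean of 9.49 ± 1.91 CPM to 17.4 ± 2.21 CPM (SD, n = 3). Dtx4 fell by 0.64 on the log2 scale (edgeR adjusted p = 0.0228), from a mean of 55.4 ± 1.96 CPM to 35.5 ± 4.46 CPM (SD, n = 3). With 1 library left out, Dtx2 passed the limit in 2 and Dtx4 in 1 of the 6 fits. Dtx1, another member of the family and a known Notch target in lymphocytes, had a log2 fold change of -0.46 with no overlap between the groups, but it did not pass the limit (edgeR adjusted p = 0.148). The other 4, Mib2, Numbl, Dtx3l and Fbxw7, did not pass either, with log2 fold changes of -0.19, 0.41, 1.01 and 0.58, and the groups did not overlap for Fbxw7 alone among them. In 1 of the 14 alternatives each, Dtx3l passed with the replicate block (edgeR adjusted p = 0.0186) and Fbxw7 with no low-count filter (0.0425).

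In the nuclear complex, Maml1, which encodes a Mastermind coactivator, rose by 0.74 ± 0.157 (SE) on the log2 scale (edgeR adjusted p = 0.0181), from a mean of 24.0 ± 1.87 CPM to 40.1 ± 4.85 CPM (SD, n = 3). It passed the limit in 3 of the 6 fits without 1 library. Rbpj, the DNA-binding subunit, was at 36.7, 24.2 and 32.8 CPM at 0 h PCS and at 25.8, 27.3 and 24.7 CPM at 6 h PCS. Its groups overlapped, and its log2 fold change of -0.27 did not pass the limit (edgeR adjusted p = 0.426). Maml2, another Mastermind coactivator, had a log2 fold change of 0.21 with no overlap between the groups and did not pass the limit (edgeR adjusted p = 0.360).

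Of 3 corepressors that could be named, 2 rose, both of the TLE family, homologs of Groucho that HES proteins recruit. Tle3 was at 88.2, 71.5 and 95.1 CPM at 0 h PCS and at 216, 142 and 177 CPM at 6 h PCS, which did not overlap. Its log2 fold change of 1.07 ± 0.181 (SE; edgeR adjusted p = 0.00676) passed the limit in all 6 fits without 1 library. Tle1 rose by 0.82 on the log2 scale (edgeR adjusted p = 0.0441), from 27.8 ± 1.51 CPM to 49.2 ± 15.2 CPM (SD, n = 3), and it passed in 1 of the 6 fits. Cir1, which encodes a corepressor that binds RBPJ, had a log2 fold change of -0.60 that did not pass the limit (edgeR adjusted p = 0.0989). With library size scaling, Notch1, Tle3, Lfng and Dtx4 kept their calls, Dtx2, Maml1 and Tle1 lost theirs, and Dtx1 and Cir1 passed the limit as decreases.

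For each gene, the tested genes with the most similar profile over the 6 libraries were found by the root mean square difference of their mean-centred log2 CPM, among genes with a mean of at least 10 CPM. The selection used these same libraries, so similar fold changes and calls among the nearest genes follow from it. The nearest to Notch1 were Arhgap17, which encodes a GTPase-activating protein (root mean square difference 0.0688), Trio, a guanine nucleotide exchange factor (0.101), and the transporter gene Slco5a1 (0.105), with log2 fold changes of 1.26, 1.11 and 1.36. The nearest to Jag1 were Plec, which encodes the linker protein plectin (0.0878), Wdr43 (0.0988) and Ugdh, which makes the UDP-glucuronate used for hyaluronan (0.135). These 3 had log2 fold changes of 0.91, 0.86 and 1.02 and passed the FDR limit, which Jag1 did not. For Notch2 the nearest named genes were Fbxo34 and Cwf19l2, for Hes1 Gon4l and Rbm26, and for Hey1 Ano10, and 0 of these 5 passed the limit. The other 4 near genes of these 3 had no name at hand.

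Markers of other cell types were also measured in the capsule samples. Of these, all 4 hemoglobin genes and 1 of 5 leukocyte markers, Cd68, rose past the FDR limit, whereas 0 of the corneal, endothelial, mural and pigment cell markers passed it. The summed level of the 2 named corneal epithelial markers, Krt12 and Krt5, was 0.765 to 14.7 CPM at 0 h and 69.2 to 104.1 CPM at 6 h PCS. That of the 4 hemoglobin genes was 6.43 to 17.5 CPM at 0 h and 62.6 to 114 CPM at 6 h PCS. The 4 named endothelial markers summed to 4.10 to 26.3 CPM and 20.0 to 36.9 CPM, and the 5 leukocyte markers to 9.24 to 14.2 CPM and 14.2 to 23.1 CPM. Most of the endothelial sum was Kdr in every library, whereas Pecam1 and Cdh5 were higher in every 6 h library than in every 0 h library. Their log2 fold changes of 1.98 and 3.33 did not pass the FDR limit (edgeR adjusted p = 0.0644 and 0.0529). The 4 pigment cell markers summed to 209, 63.8 and 51.4 CPM at 0 h and 77.4, 456 and 1965 CPM at 6 h PCS, and the 4 markers of mural cells and smooth muscle to 102, 89.8 and 99.0 CPM and to 103.9, 95.5 and 223 CPM. All 4 pigment cell markers were highest in 6 h replicate 3, whereas the mural sum of that library was mostly Myh11, at 169 of its 223 CPM. Myh11 was also higher in every 6 h library than in every 0 h library, at 25.1 to 169 CPM against 8.16 to 21.0 CPM. Pdgfrb, a receptor of pericytes, was lowest in 6 h replicate 3 (46.2 CPM against 54.7 to 81.9 CPM in the other 5), and Abcc9 was lower in every 6 h library than in every 0 h library, at 1.88 to 4.10 CPM against 4.23 to 6.99 CPM. In these lists 0 markers were without counts in all libraries. The 5 named lens epithelial markers, Pax6, Foxe3, Sox2, Epha2 and Gja1, summed to 1088 to 1285 CPM at 0 h and 1177 to 1386 CPM at 6 h PCS, and all 5 were present in every library. Within this list Epha2, which encodes an ephrin receptor, rose by 1.21 on the log2 scale (edgeR adjusted p = 0.0134), and Sox2, which encodes a transcription factor, fell by 0.70 (edgeR adjusted p = 0.0151). Pax6, Foxe3 and Gja1 did not pass the limit, with log2 fold changes of -0.51, 0.28 and 0.41 (edgeR adjusted p = 0.156, 0.249 and 0.260). Notch receptors and their ligands are also made by corneal, vascular and blood cells, and the part of these cells in the changes of Notch1, Lfng and the others was not tested.

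Some of the counted genes share ground with others in the RefSeq annotation of GRCm38. The lncRNA gene 0610009E02Rik overlaps the span of Notch1 over 1489 bases, and the miRNA gene Mir6996 lies inside it. The lncRNA gene Gm40103 lies within the span of Notch2, and LOC115489673, annotated as protein coding, overlaps Hey1 over 115 bases. HTSeq in union mode counts a read over exons of 2 genes in its annotation for neither gene, and such ambiguous reads were 0.670% to 0.888% of each file. Whether these partners were in the Ensembl annotation used, and with which strand setting reads were counted, is not given in the sources used here, and the part of such reads in the counts of Notch1, Notch2 and Hey1 was not tested. No other gene overlaps Jag1 or Hes1 in the RefSeq annotation.

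**Figure D4:**
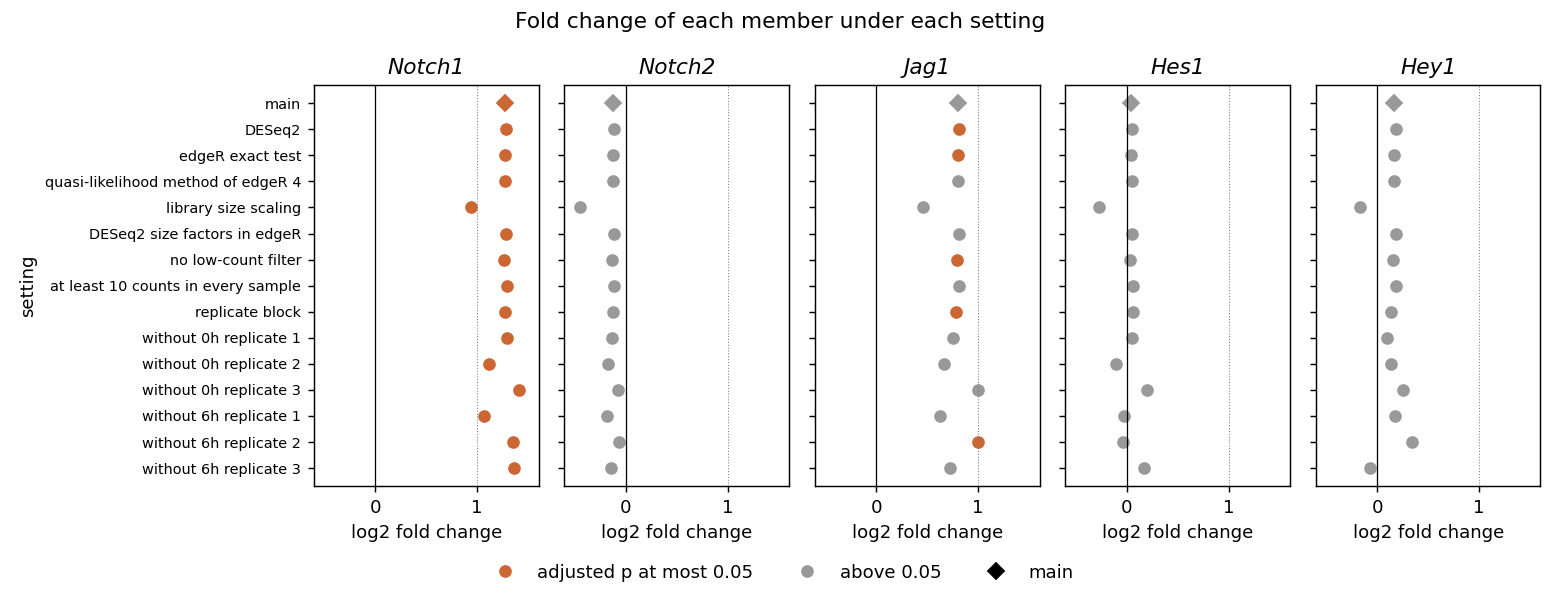
Log2 fold change at 6 h over 0 h PCS (horizontal axes) of each of the 5 genes in the main fit (diamond) and under 14 alternatives (circles), in orange where the adjusted p was at most 0.05. Notch1 is orange throughout, Jag1 in some settings, and Notch2, Hes1 and Hey1 in none, with the values of Hes1 and Hey1 on both sides of 0.

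Across the 14 alternatives, Notch1 was past the FDR limit in all and above 0 in all. Notch2 was below 0 in all 14 and past the limit in 0. Its lowest adjusted p was 0.0577, from edgeR with library size scaling (log2 fold change -0.45). Jag1 was above 0 in all 14 and past the limit in 5, counting both the tools and the left-out libraries. Hes1 was above 0 in 10 and Hey1 in 12 of the 14, with no call for either gene.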

How the data were processed

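Total RNA of pooled lens capsules was sequenced after ribosomal RNA depletion (SMARTer Stranded Pico v2 per the labels). The authors aligned read pairs to GRCm38 with Hisat2 and used HTSeq (union mode) to count them for each Ensembl gene, and the deposited values are these raw counts. HTSeq summary rows were left out, and gene counts made up 33.6% to 41.2% of each file. Gene counts ran from 20253239 to 24701039 per library at 0 h and from 18039974 to 22496116 at 6 h PCS.

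Groups came from the sample titles. Following the study's methods, edgeR 4.0.16 was used with filterByExpr, TMM, robust dispersions and the quasi-likelihood F-test (legacy method) on all 6 libraries, with Benjamini-Hochberg adjustment over all genes tested. The SE is the log2 fold change divided by the square root of F, and the 95% interval uses the t distribution on the degrees of freedom of the fit. The fit was tested on simulated data. P-values measure the spread between these pools, with dispersions moderated across genes in edgeR and DESeq2. The main fit treats the pools as independent, and counting errors cover sampling of reads only.

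Symbols were read from the supplementary tables, whose columns of the authors' fold changes and p-values were not used. With the 5 genes included, 7028 identifiers had a symbol. The identifiers of Jag1 and Hey1 were given with the gene list. Coordinates come from RefSeq (GRCm38.p6). Named by rule were the 5 genes, the pathway genes past the FDR limit and the 3 nearest profiles per gene. The rule's gene of highest level per length in each role was not applied, as exon lengths were not used here, and the other pathway genes and markers were named after their values were seen. A further gene, outside the 72 listed, is not reported here. The members and lists were chosen with earlier results of these data known.

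Alternatives were DESeq2 1.42.0, the exact test, the edgeR 4 method, library size scaling, DESeq2 size factors, 2 other filters, a replicate block and leaving out each library.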

Additional observations from a re-analysis of the deposited data

How the results depend on the processing

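Notch1 and Notch2 kept their direction and their side of the FDR limit under all 14 alternatives, with log2 fold changes between 0.94 and 1.41 for Notch1 and between -0.45 and -0.065 for Notch2. Jag1 passed the limit with DESeq2 (log2 fold change 0.81), the exact test (0.80), no low-count filter (0.79) and the replicate block (0.78, adjusted p = 0.0134 from edgeR). It was lowest with library size scaling, at 0.46 (adjusted p = 0.153 from edgeR), and it ranged from 0.63 to 1.00 over the fits without 1 library. Hes1 turned to -0.27 and Hey1 to -0.16 with library size scaling, and they ranged from -0.11 to 0.20 and from -0.072 to 0.35 without 1 library. Over all genes, 1400 passed the limit, against 2189 with DESeq2, 2574 with library size scaling, 2303 with no low-count filter, and 620 (without 0 h replicate 1) to 1376 without 1 library. Of the 27 pathway genes 7 passed, against 10 with no low-count filter, 10 with the replicate block, and 2 to 6 without 1 library. Dll1 (log2 fold change 1.18) passed with the replicate block at 1.16 (adjusted p = 0.00208 from edgeR). The cause of these differences was not tested. The log2 differences of the count ratios kept their sign for Notch1 to Notch2 and for Jag1 to Notch2 in all fits, while that of Hey1 to Hes1 (0.077) ranged from -0.27 to 0.36 without 1 library.

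In their deviations from the group means, same-numbered libraries correlated by -0.00788, 0.283 and 0.156 for replicates 1, 2 and 3. Replicates 2 and 3 of each time point correlated best with their own number, and replicate 1 did not. Which pools share mice is not stated, so the replicate numbers were not taken to pair the samples, and the replicate block is given as an alternative. The block raised the number of calls over all genes from 1400 to 1656. With 3 libraries per group, fold changes inside the intervals given could not be resolved.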
